A study of Homo sapiens with 26 samples.

Results

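The antioxidant genes of U2OS cells did not move together in acidic medium. NQO1, HMOX1 and SRXN1 were lower at pH 6.3 than at pH 7.4. TXNRD1, GCLC and GCLM had their highest value in acid at 12 h and their highest value in neutral medium at 4 h. In the pentose phosphate pathway TKT was higher in acid. PGD was slightly lower, at the threshold of the test, and did not pass in 9 of 13 fits that left out a single time. These 9 genes were chosen by symbol, 7 as antioxidant targets of the transcription factor NRF2 (HMOX1, NQO1, GCLM, GCLC, TXNRD1, SRXN1 and OSGIN1) and 2 as enzymes of the pentose phosphate pathway (PGD and TKT). They are 9 of the 19704 gene symbols in the deposited table. Each had a single entry, and all 9 averaged 1 FPKM or more across the libraries and were among the 11838 genes tested. FPKM are read fragments divided by transcript length and library size, so levels of different genes can be set side by side.

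The study followed polyadenylated RNA of U2OS, a human osteosarcoma cell line, for 52 h in media of 2 pH values. All cells carried the Arntl::dLUC clock reporter, a luciferase gene under a clock gene promoter. The neutral group was kept at pH 7.4 and the acidic group at pH 6.3. Both media were DMEM with 5% serum, 25 mM PIPES and 25 mM HEPES as buffers and 0.1 µM dexamethasone, a glucocorticoid that synchronizes cellular clocks, and all dishes were sealed and kept without added carbon dioxide. Each pH had 13 libraries, 1 for every 4 h from 4 to 52 h, and each library was a single dish of a single cell line. The 28 to 52 h dishes were a set of plates seeded and treated a day before the set that gave 4 to 24 h, and dishes 24 h apart in treatment were harvested together, in both media. Plate set and early or late time therefore cannot be told apart. No time had a replicate, so each SD, SE and p-value below describes how far time points differ, a spread that includes true changes during the course.

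NRF2, encoded by NFE2L2, is held in the cytoplasm and marked for degradation by KEAP1. Oxidants and electrophiles disable KEAP1, and NRF2 then pairs with a small MAF protein and binds antioxidant response elements in promoters and enhancers. The pentose phosphate pathway branches from glycolysis. Its oxidative arm, which includes PGD, makes NADPH, which the glutathione and thioredoxin systems consume, and its non-oxidative arm, with TKT and TALDO1, exchanges carbon with glycolysis and makes ribose phosphate.

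Promoter sequence was read for the members because NRF2 binds a short core, TGACNNNGC, in the antioxidant response element. RefSeq (GRCh38.p14) gave 9 windows for 8 of the 9 members, each from 250 bases before to 50 after a transcription start, and none for HMOX1. The core, searched on both strands, was present in 13.3% of all 35116 windows of this kind, so a match in a single window is common. It occurred in windows of GCLM, TXNRD1 and PGD and in none of the windows of NQO1, GCLC, SRXN1, OSGIN1 and TKT, which says only that these letters are not in those windows. The matches are printed below 5′ to 3′ on the gene's strand, with the core in capitals. A core on the opposite strand reads GCNNNGTCA.
GCLM, minus strand, chr1:93909446-93909474: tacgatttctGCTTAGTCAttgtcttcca
TXNRD1, plus strand, chr12:104215655-104215713: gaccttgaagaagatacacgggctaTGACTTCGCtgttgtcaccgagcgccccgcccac
TXNRD1, plus strand, chr12:104215761-104215789: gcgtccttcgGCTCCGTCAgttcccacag
TXNRD1, start within the gene, plus strand, chr12:104286920-104286948: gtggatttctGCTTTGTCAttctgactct
PGD, plus strand, chr1:10398838-10398896: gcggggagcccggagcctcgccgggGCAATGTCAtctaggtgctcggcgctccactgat

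Counted from the start site, with the first transcribed base as 1, the core lay at −34 to −26 in GCLM, at −99 to −91 and at −8 to 1 at the upstream start of TXNRD1, at −102 to −94 at its inner start and at −201 to −193 in PGD. The stretches of GCLM, of the inner TXNRD1 start and the one across the upstream TXNRD1 start overlapped exons of those genes in GENCODE 29, and the other 2 overlapped no exon. The related motif TGANTCA, which AP-1 factors bind, was in 7.71% of all windows. Among the members it was found only in the window of OSGIN1, at a single place that reads as the motif on both strands. None of the printed cores overlapped it. Of the 3 genes with a core, GCLM and TXNRD1 shared the time course described below and PGD did not. GCLC shared it too and had no core in its window.

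Total counts were not in the table. Depth, as judged by the steps between low FPKM values, was between 20.1 and 36.1 M (mega) fragments in 24 libraries, 9.82 M in pH 7.4 at 12 h and 11.3 M in pH 6.3 at 8 h. The steps can be read at a multiple, so the absolute scale of these depths is uncertain. In 4 libraries the deviations of genes from their group means correlated across genes with transcript GC content by more than 0.5 in size: pH 7.4 at 28 h (r = 0.77), 44 h (−0.68) and 48 h (−0.73), and pH 6.3 at 20 h (0.65). In the other libraries r ran from −0.49 (pH 6.3 at 40 h) to 0.47 (pH 7.4 at 24 h). The limit of 0.5 thus splits a continuous range, and the times kept without these 4 libraries still hold skew just below it. Since genes are no replicates, these r values only describe a library. The 6 libraries of low depth or skewed GC content are thus those of pH 7.4 at 12, 28, 44 and 48 h and of pH 6.3 at 8 and 20 h, and single values and ratios at these times rest on them. Of 12 markers of mesenchymal and bone cells 8 had a mean of at least 1 FPKM, among them VIM (626 FPKM) and RUNX2 (24.4 FPKM), while TWIST1, IBSP, BGLAP and COL1A2 were below 1. The counts were 4 of 10 epithelial, 2 of 10 leukocyte and 0 of 5 endothelial markers. The summed leukocyte markers, mostly LCP1, ran from 14.2 to 40.9 FPKM at pH 7.4 and from 8.58 to 19.1 FPKM at pH 6.3, and their part in the results below was not tested. In such bulk samples a smaller number of cells of a kind and less RNA per cell cannot be told apart.

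By mean level at pH 7.4 the members ran from TXNRD1 (98.2 ± 37.6 FPKM; SD, n = 13 times here and below) and NQO1 (92.9 ± 21.4) through GCLC (64.4 ± 10.1), TKT (62.0 ± 27.0), PGD (61.2 ± 7.80), GCLM (24.8 ± 11.6), HMOX1 (18.2 ± 5.75) and SRXN1 (15.3 ± 2.78) to OSGIN1 (1.22 ± 0.806). At pH 6.3 the order was TXNRD1 (149 ± 101 FPKM), TKT (94.7 ± 33.8), GCLC (76.7 ± 27.3), PGD (53.4 ± 12.6), NQO1 (38.5 ± 17.8), GCLM (24.6 ± 5.08), SRXN1 (10.8 ± 2.14), HMOX1 (9.80 ± 3.58) and OSGIN1 (1.83 ± 1.92). NQO1 thus moved from the second place to the fifth. The ranges of mean ± SD of neighbours overlapped in both orders, except PGD above GCLM at pH 7.4, GCLM above SRXN1 at pH 6.3, and the step down to OSGIN1 at both.

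The first comparison asked how the mean level over the course differed between the media. The acid effect was the mean of the 13 differences, pH 6.3 minus pH 7.4, within time points in log2(FPKM + 1), in which low values appear to change less than they do. It was tested with limma, with the time point as a block and Benjamini-Hochberg adjustment over all genes tested. Of the 9 members 6 passed an adjusted p of 0.05, 2 higher and 4 lower in acid. Among all genes 59.7% passed, 22.4% higher and 37.3% lower, so the members' share was close to that background. The median acid effect was 0.05 over the 9 members and −0.12 over all genes. The 13 values at the 2 pH overlapped for all 9 members, while all acid values lay above all neutral ones in 1.28% of all genes and below them in 2.37%.

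**Figure D1:**
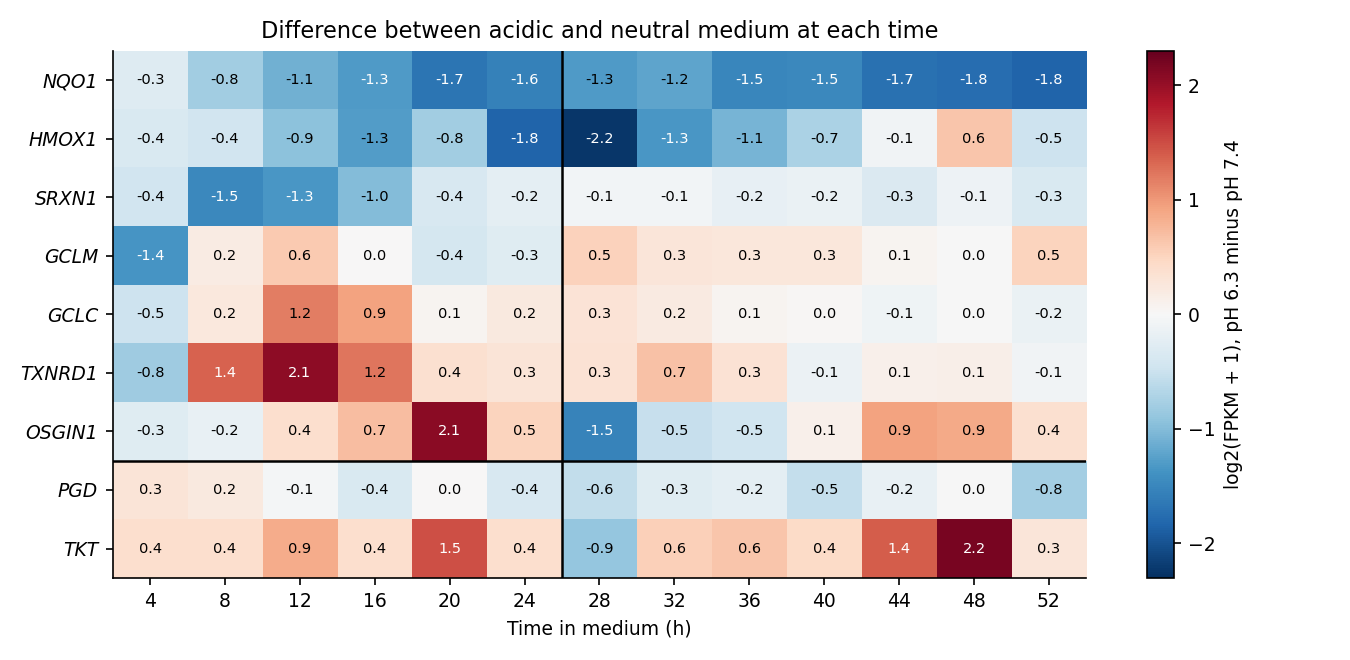
Log2(FPKM + 1) at pH 6.3 minus that at pH 7.4 for each member (rows) at each time (columns); blue is lower and red higher in acid, the vertical line separates the plate sets and the horizontal line the pentose phosphate enzymes. NQO1 and SRXN1 are blue at all 13 times, TXNRD1 is reddest at 12 h (2.06), and TKT is red at 12 of 13 times.

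NQO1, which encodes a quinone reductase that uses NADPH or NADH and is a standard readout of NRF2 activity, had the largest acid effect of the 9. Its level at pH 7.4 had a minimum of 63.3 FPKM at 52 h, a median of 90.6 and a maximum of 124 FPKM at 12 h, in the shallow library. At pH 6.3 the lowest value was 16.9 FPKM at 52 h, the median 36.4 and the highest 74.1 FPKM at 4 h. The acid series fell or held over most steps, and 11 of its 13 values lay below the lowest neutral value, while those of 4 and 8 h lay inside the neutral range. NQO1 was lower in acid at 13 of 13 times, from 0.817 times the neutral FPKM at 4 h to 0.267 times at 52 h. Its acid effect was −1.35 (SE 0.11, adjusted p = 2.38e-07, limma). Among all genes 8.19% were lower and 4.43% higher in acid at every time.

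HMOX1, heme oxygenase 1, which breaks heme down to biliverdin, iron and carbon monoxide, ran from 10.3 FPKM at 48 h through a median of 18.3 to 32.0 FPKM at 28 h in neutral medium. In acid it ran from 5.26 FPKM at 24 h through a median of 8.96 to 16.8 FPKM at 52 h. Acid values were lower at 12 of 13 times, and 8 of them lay below the lowest neutral value. The exception was 48 h, where the neutral library had low values for GC-rich transcripts and HMOX1, with a transcript GC content of 60.8% against a median of 49.2% over genes tested, was 1.61 times higher in acid. HMOX1 had its lowest ratio, 0.187 times the neutral value, at 28 h, where the neutral library had high values for GC-rich transcripts. Its acid effect was −0.84 (SE 0.19, adjusted p = 0.00114, limma), and −1.01 (adjusted p = 0.00182) over the 7 times without a library of low depth or skewed GC content.

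SRXN1, sulfiredoxin, repairs overoxidized peroxiredoxins. In neutral medium it rose from 14.5 FPKM at 4 h to a maximum of 21.2 FPKM at 8 h and then declined to a minimum of 12.2 FPKM at 48 h, with a median of 14.5. In acid it went the other way, with its minimum of 6.89 FPKM in the shallow library of 8 h, a median of 11.2 and its maximum of 13.9 FPKM at 28 h. Its level in acid was lower at 13 of 13 times, 0.326 times the neutral value at 8 h and 0.958 times at 28 h. The acid effect was −0.47 (SE 0.13, adjusted p = 0.00566, limma).

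TXNRD1 encodes the cytosolic thioredoxin reductase, the NADPH-dependent enzyme that keeps thioredoxin reduced. Neutral values ran from 72.6 FPKM at 44 h through a median of 88.2 to 217 FPKM at 4 h, and the next highest value was 119 FPKM at 8 h. Acid values ran from 74.1 FPKM at 40 h through a median of 116 to 410 FPKM at 12 h, with 305 FPKM at 8 h in the library of low depth and 207 FPKM at 16 h. From 40 h onward the pH groups were interleaved, between 72.6 and 90.9 FPKM. The 12 h value was 4.20 times that of the shallow neutral library, and acid was higher at 10 of 13 times. The acid effect of 0.45 (SE 0.18, adjusted p = 0.0407, limma) rested on few times: it was 0.32 without 12 h (adjusted p = 0.0817), and without 8, 16, 20, 24, 32 or 36 h the adjusted p was between 0.0522 and 0.0861. Over the 7 times without a library of low depth or skewed GC content it was 0.21 (adjusted p = 0.387).

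GCLC and GCLM encode the catalytic and the modifier subunit of glutamate-cysteine ligase, which makes the first and rate-limiting step of glutathione synthesis. GCLC ran from 56.3 FPKM at 48 h through 61.4 to 94.9 FPKM at 4 h in neutral medium, and from 54.8 FPKM at 52 h through 69.1 to 144 FPKM at 12 h in acid. It was 2.29 times the level of the shallow neutral library at 12 h and 0.719 times at 4 h. GCLM ran from 14.4 FPKM at 52 h through 21.7 to 61.2 FPKM at 4 h in neutral medium, and from 18.7 FPKM at 48 h through 23.2 to 35.9 FPKM at 12 h in acid. At 4 h its acid level was 0.379 times the neutral one, the lowest of its 13 ratios. Averaged over the course neither subunit passed the test, with acid effects of 0.20 for GCLC (SE 0.11, adjusted p = 0.150, limma) and 0.05 for GCLM (SE 0.14, adjusted p = 0.770, limma).

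TXNRD1, GCLC and GCLM thus shared the times of their maxima, 4 h at pH 7.4 and 12 h at pH 6.3. This was observed after the values were seen. Among all genes tested 15.5% had their neutral maximum at 4 h, 4.18% had their acid maximum at 12 h, and 1.77% had both. At 4 h all 3 were lower in acid, and at 12 h all 3 were higher. None of the other 4 antioxidant members had its neutral maximum at 4 h or its acid maximum at 12 h. NQO1 had its acid maximum at 4 h, as did 22.6% of all genes. Its neutral maximum at 12 h (124 FPKM) was in the shallow library, with 119 FPKM at 16 h and at 20 h.

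**Figure D2:**
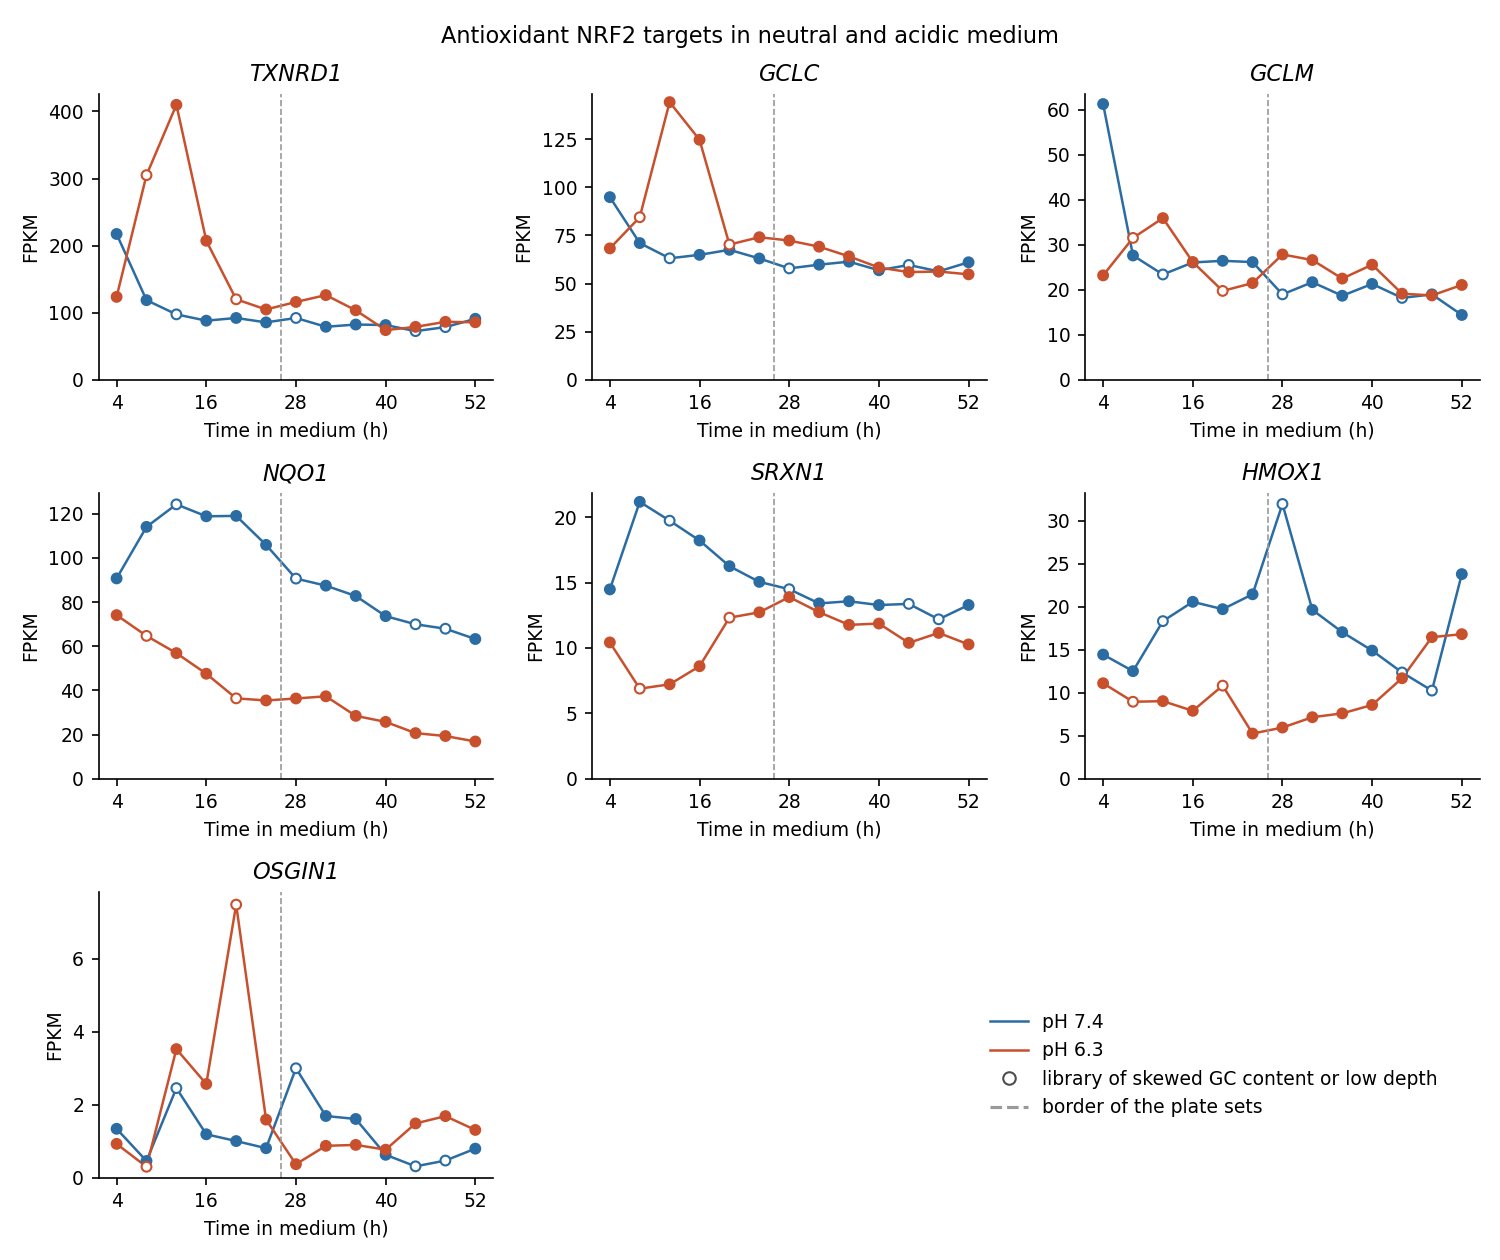
FPKM of the 7 antioxidant members (vertical axes, each with its own range from 0) against hours in medium, 1 point per library, blue for pH 7.4 and red for pH 6.3; open points are the 6 libraries of skewed GC content or low depth and the dashed line separates the plate sets. TXNRD1 reaches 410 FPKM at 12 h in acid and the pH groups meet from 40 h, NQO1 declines in acid to 16.9 FPKM, and SRXN1 is furthest apart at 8 h.

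OSGIN1, an NRF2-responsive growth inhibitor, was the least abundant member and the most variable. It ran from 0.315 FPKM at 44 h through 1.01 to 3.004 FPKM at 28 h in neutral medium and from 0.304 FPKM at 8 h through 1.31 to 7.49 FPKM at 20 h in acid. Both maxima were in libraries in which GC-rich transcripts were high, and OSGIN1 had the highest transcript GC content of the members (63.2%). Its acid effect was 0.23 (SE 0.22, adjusted p = 0.376, limma), 0.11 after correction for GC content and 0.06 over the 7 times without a library of low depth or skewed GC content, and none of these passed the threshold.

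**Figure D3:**
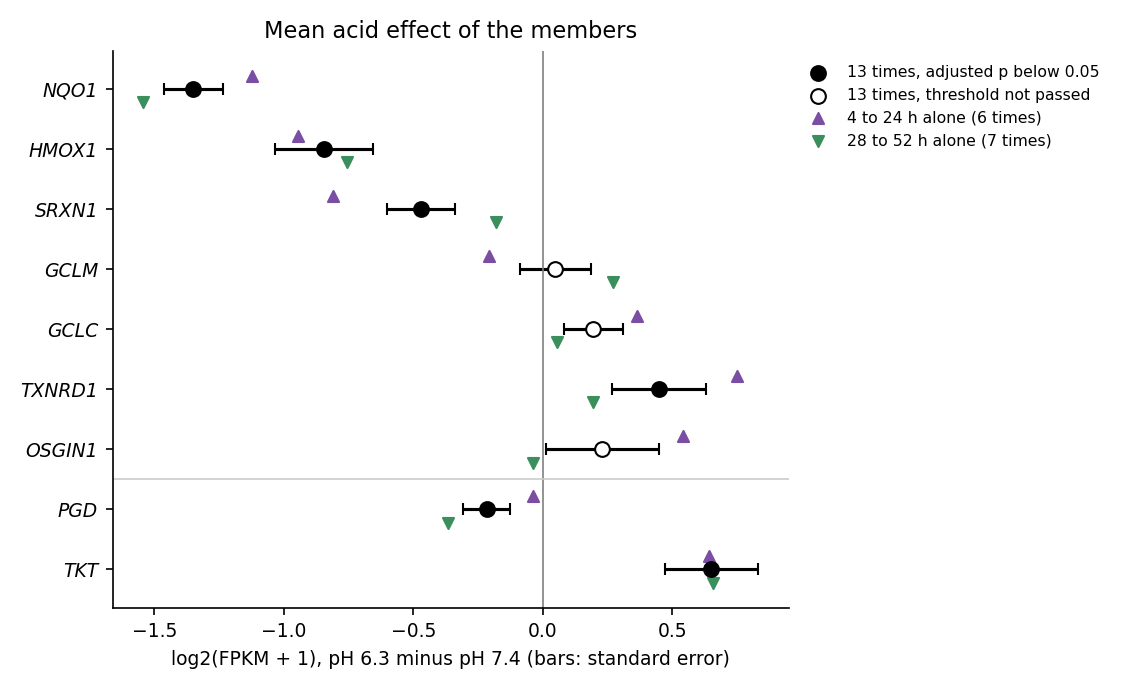
Acid effect of each member (horizontal axis, log2(FPKM + 1), pH 6.3 minus pH 7.4) over 13 times (circles, filled where the adjusted p is below 0.05, with bars of 1 standard error), over 4 to 24 h alone (upward triangles) and over 28 to 52 h alone (downward triangles). NQO1 is at −1.35 and TKT at 0.65, and the triangles of GCLM lie on opposite sides of 0.

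Of the pentose phosphate members, PGD encodes 6-phosphogluconate dehydrogenase, which makes NADPH in the oxidative arm. By coefficient of variation it varied the least of the 9 at pH 7.4, from 47.6 FPKM at 44 h through 60.7 to 75.1 FPKM at 16 h. At pH 6.3 it ran from 39.9 FPKM at 40 h through 49.6 to 78.5 FPKM at 4 h. PGD was higher in acid at 4, 8 and 20 h and lower at the other 10 times, and 6 acid values lay below the neutral range. The acid effect was −0.22 (SE 0.09, adjusted p = 0.0499, limma), at the threshold: leaving out single times gave adjusted p-values from 0.0163 to 0.114, and 9 of the 13 no longer passed. The call was also lost with a pseudocount of 0.1 (adjusted p = 0.05015), no filter (0.0521), upper-quartile scaling (0.0997) and moderation without trend (0.0615).

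TKT encodes transketolase of the non-oxidative arm. In neutral medium it ran from 24.6 FPKM at 48 h through 63.9 to 138 FPKM at 28 h, and in acid from 60.0 FPKM at 40 h through 85.8 to 195 FPKM at 20 h. Each of those neutral extremes and the acid maximum was in a library of skewed GC content, and the transcript GC content of TKT was 58.4%. Acid values were higher at 12 of 13 times, the exception being 28 h, where acid was 0.539 times neutral. The acid effect was 0.65 (SE 0.18, adjusted p = 0.00533, limma). It was 0.60 after correction for GC content (adjusted p = 4.99e-04) and 0.44 over the 7 times without a library of low depth or skewed GC content (adjusted p = 0.00178).

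**Figure D4:**
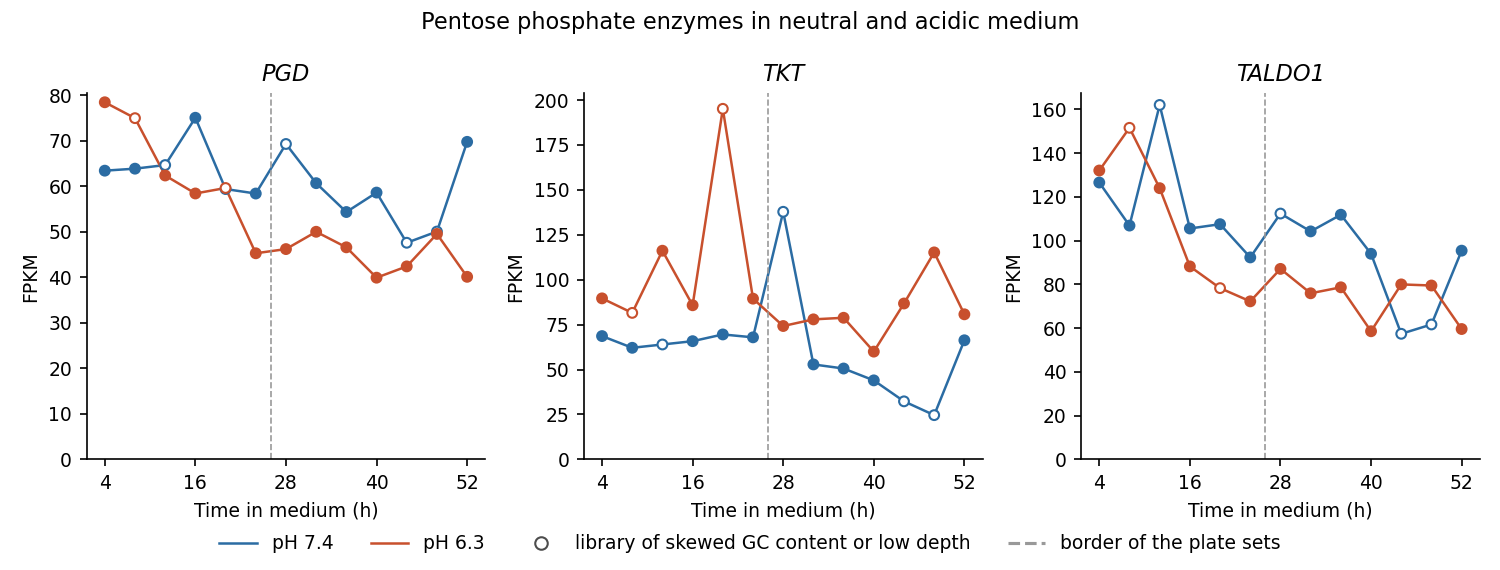
FPKM of PGD and TKT and of TALDO1, which acts beside TKT in the non-oxidative arm (vertical axes from 0), against hours in medium, blue for pH 7.4 and red for pH 6.3; open points are the 6 libraries of skewed GC content or low depth and the dashed line separates the plate sets. TKT is higher in acid at all times but 28 h, where the neutral library reads 138 FPKM, and PGD is higher in acid at 4, 8 and 20 h.

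Ratios within a library compared members directly. The log2 ratio of TKT to PGD, computed from FPKM + 1 as for each ratio here, was −0.08 ± 0.46 at pH 7.4 and 0.79 ± 0.42 at pH 6.3 (SD, n = 13). The difference was 0.87 ± 0.66 (SD), with acid higher at 12 of 13 times (exact two-sided sign-flip permutation test, p = 0.00122, adjusted p = 0.00244 over the 2 ratios compared). It was 0.68 over 4 to 24 h and 1.02 over 28 to 52 h. The unequal change of the 2 enzymes was thus present in both plate sets. It was small at 4 h (0.08) and 8 h (0.16). The largest differences, 1.47 at 20 h, 1.56 at 44 h and 2.20 at 48 h, fell on times with a library of skewed GC content. So did the single reversal, −0.31 at 28 h.

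The log2 ratio of GCLM to GCLC, the subunits of a single enzyme, was −1.42 ± 0.32 at pH 7.4 and −1.56 ± 0.29 at pH 6.3 (SD, n = 13), a difference of −0.15 (exact two-sided sign-flip permutation test, p = 0.290 before and after adjustment). That mean joined opposite directions. From 4 to 24 h the ratio was lower in acid at 6 of 6 times, by −0.89 at 4 h, −0.06 at 8 h and −0.93 at 16 h, with a mean difference of −0.57 (exact permutation p = 0.03125, the smallest that 6 times allow). From 28 to 52 h it was higher in acid at 6 of 7 times, with a mean difference of 0.22 (exact permutation p = 0.03125). Late and early times were compared after the data were seen, so the p-values of this contrast are only descriptive. The late difference minus the early was 0.79 (exact permutation test over 1716 arrangements of the times, p = 5.83e-04, the smallest these allow, which ignores the joint harvests). Over the 6 pairs of times harvested together it was 0.71, positive in 6 of 6 (exact sign-flip permutation p = 0.03125, the smallest that 6 pairs allow). The late minus early difference over all times ranged from 0.71 to 0.89 when single times were left out, and was 1.06 over the 7 times without a library of low depth or skewed GC content.

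The next comparison asked whether the acid effect differed between 4 to 24 h and 28 to 52 h. By the interaction of pH and plate set 0 of the 9 members passed (limma, adjusted p of 0.05), against 17.1% of all genes (10.5% with a higher effect late and 6.56% with a lower). By unadjusted p SRXN1 alone was below 0.05. For SRXN1 the acid effect was −0.81 early and −0.18 late, a difference of 0.63 (SE 0.21, adjusted p = 0.0533), and leaving out 4, 20 or 24 h brought the adjusted p below 0.05. For TXNRD1 it was 0.75 early and 0.19 late, a difference of −0.56 (SE 0.34, adjusted p = 0.282), which was −0.87 (adjusted p = 0.0372) without 4 h. Within the sets NQO1 was lower in both, by −1.12 (adjusted p = 0.00425) and −1.54 (adjusted p = 1.92e-06). SRXN1 also passed in both sets, with adjusted p-values of 0.0197 early and 0.0466 late. HMOX1 passed early (−0.94, adjusted p = 0.0128) and TKT early (0.64, adjusted p = 0.0177), while their late effects of −0.76 and 0.66 had adjusted p-values of 0.0507 and 0.0881. PGD passed late only (−0.37, adjusted p = 0.00953, against −0.04 and 0.842 early), and so did GCLM (0.27, adjusted p = 0.0197, against −0.21 and 0.5001 early). The differences of HMOX1, TKT, PGD and GCLM between the sets did not themselves pass.

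Linear trends over the course were fitted in each medium. At pH 7.4 2 of the 9 members fell, against 8.46% of all genes that fell and 9.39% that rose (17.9% in all). GCLM fell by 0.60 per 24 h on the log2 scale (SE 0.12, adjusted p = 6.26e-04, limma; by 0.39 without 4 h, adjusted p = 0.00513) and NQO1 fell by 0.44 (SE 0.07, adjusted p = 9.19e-05, limma). At pH 6.3 4 of 9 fell, against 19.8% of all genes that fell and 28.1% that rose (47.9% in all). The declines were −0.98 per 24 h for NQO1 (adjusted p = 7.30e-11), −0.86 for TXNRD1 (adjusted p = 2.17e-04), −0.45 for GCLC (adjusted p = 8.97e-04) and −0.43 for PGD (adjusted p = 4.28e-05, limma throughout). No member rose. With the plate set as a covariate, which takes the step between 24 and 28 h out of the slope, NQO1 at pH 6.3 was the only trend of a member to pass (−1.24, adjusted p = 1.24e-06). In neutral medium mean NQO1 was 112 FPKM over 4 to 24 h and 76.5 FPKM over 28 to 52 h. In acid these means were 52.5 and 26.4 FPKM.

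A rhythm of 24 h, the subject of the study, was not called in any member at either pH (limma F test, adjusted p of 0.05), where 0.0422% of all genes (5 genes) passed at pH 7.4 and 0% at pH 6.3. By unadjusted p 0 members were below 0.05 at pH 7.4, against 3.74% of all genes. At pH 6.3 the unadjusted p was 0.0156 for OSGIN1 and 0.0375 for TXNRD1, against 9.15% of all genes, and both had adjusted p = 0.542. For TXNRD1 the 3 high values of 8 to 16 h did not recur at 32 to 40 h, where it ran from 74.1 to 126 FPKM.

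The transcripts of the NRF2 pathway itself were described from a list of 18 regulators, all tested: 6 rose and 4 fell in acid, and 8 did not pass, against 22.4% higher and 37.3% lower among all genes, with a median acid effect of 0.17 against −0.12. NFE2L2, the gene of NRF2, was 52.2 ± 10.5 FPKM at pH 7.4 and 69.4 ± 7.23 FPKM at pH 6.3 (acid effect 0.42, adjusted p = 9.71e-04, limma), higher in acid at 12 of 13 times. Its effect did not pass over 4 to 24 h alone (0.25, adjusted p = 0.221, limma) and passed over 28 to 52 h (0.55, adjusted p = 1.34e-04, limma). At 4 h NFE2L2 was 0.736 times neutral. The transcripts of the 3 small MAF partners rose. MAFF went from 4.95 ± 2.40 to 17.6 ± 10.6 FPKM (1.59, adjusted p = 2.53e-05) and was higher in acid at 13 of 13 times, MAFK rose by 1.31 (adjusted p = 7.81e-05) and MAFG by 0.90 (adjusted p = 8.98e-04). MAFG had its acid maximum at 12 h, 37.7 FPKM, the time of the maxima of TXNRD1, GCLC and GCLM, as observed after the values were seen. The acid maxima of other regulators lay elsewhere, at 4 h for MAFF, 8 h for BACH1 and 20 h for MAFK and KEAP1. Those of SQSTM1 and NFE2L2 were at 48 and 52 h. KEAP1 (−0.25, adjusted p = 0.215), BACH1, a repressor at the same elements (0.27, adjusted p = 0.0807), and SQSTM1, an adaptor that sequesters KEAP1 (−0.14, adjusted p = 0.521), did not pass. Without the 6 libraries of low depth or skewed GC content KEAP1 was lower in acid (−0.38, adjusted p = 0.01995). The largest decreases of the list were those of PALB2 (−1.06, adjusted p = 6.45e-06), a DNA repair protein, and DPP3 (−0.68, adjusted p = 0.00888), a peptidase, both of which bind KEAP1.

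**Figure D5:**
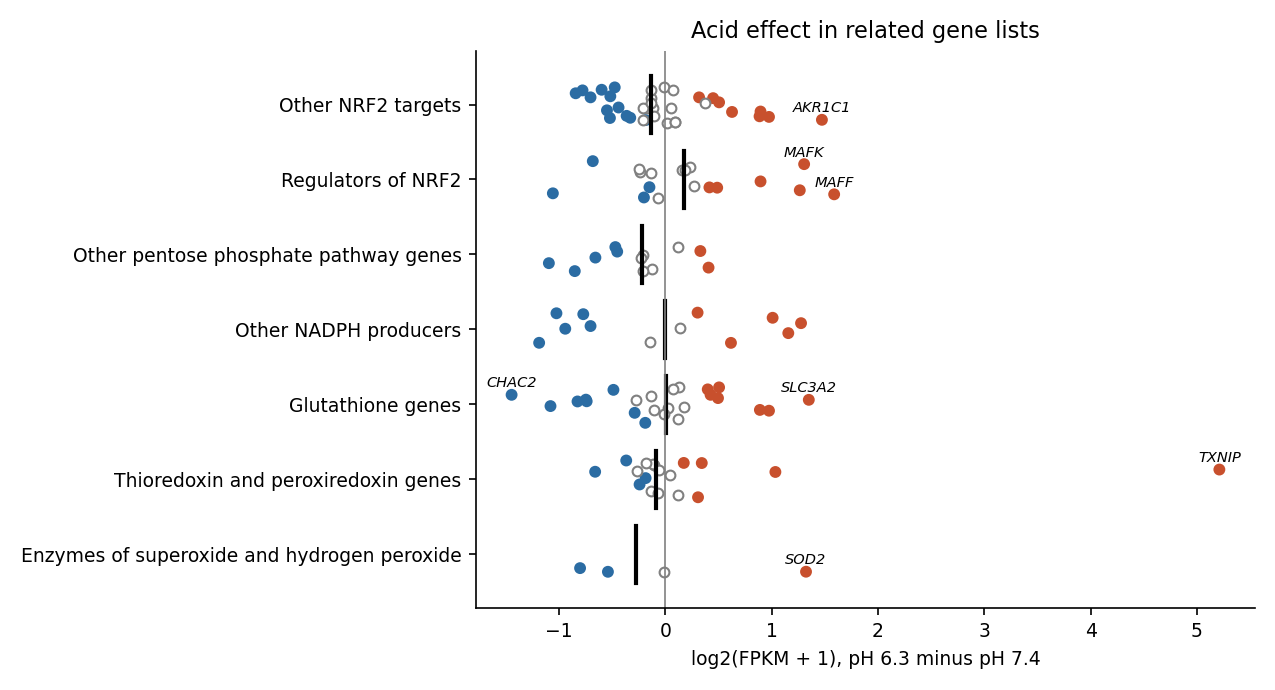
Acid effect (horizontal axis, log2(FPKM + 1), pH 6.3 minus pH 7.4) of each tested gene in 7 lists related to the members; red is higher and blue lower in acid with adjusted p below 0.05, open circles did not pass, and black bars are the medians of the lists. Most lists hold genes on both sides of 0, and TXNIP is farthest out at 5.21.

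Of 35 other NRF2 targets tested, 8 rose, 12 fell and 15 did not pass (median −0.13), close to the 22.4% higher and 37.3% lower among all genes. The same background applies to each list below. SLC7A11, the cystine transporter that supplies glutathione synthesis, rose from 3.19 ± 2.39 to 6.77 ± 2.86 FPKM (0.98, adjusted p = 0.00299, limma), with effects of 0.15 early and 1.68 late, and did not pass without the 6 libraries of low depth or skewed GC content (0.88, adjusted p = 0.0693). AKR1C1, an aldo-keto reductase, rose from 0.814 ± 0.630 to 5.85 ± 4.91 FPKM (1.47, adjusted p = 0.00367), with effects of −0.06 early and 2.78 late, though near-identical AKR1C copies may share its reads. GSTM4, a glutathione transferase with close relatives, fell by 0.84 (adjusted p = 1.19e-04), and FECH, which makes heme, fell by 0.78 (adjusted p = 3.79e-05). In the pentose phosphate list apart from the members 2 of 12 tested rose, 5 fell and 5 did not pass (median −0.22), 7 called of 12 against 59.7% of all genes. PGM2 (0.41, adjusted p = 2.95e-04) and PRPS1 (0.33, adjusted p = 0.00196), which act on ribose phosphate, rose, while DERA (−1.09, adjusted p = 3.59e-05) and RPE (−0.66, adjusted p = 1.06e-06) fell. RPE, the epimerase next to TKT in the non-oxidative arm, went from 48.7 ± 2.98 to 30.7 ± 3.39 FPKM with no overlap between the groups, as in 2.37% of all genes. TALDO1 (−0.21, adjusted p = 0.111) did not pass over 13 times but was lower in acid without the 6 libraries of low depth or skewed GC content (−0.41, adjusted p = 0.0075). Of PGD, TKT and TALDO1, TKT alone passed as higher in acid.

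Systems that use or supply NADPH were read against the same 22.4% higher and 37.3% lower. Among 12 other NADPH producers 5 rose and 5 fell (median −0.01). The mitochondrial folate enzymes ALDH1L2 (1.28, adjusted p = 1.79e-04) and MTHFD2 (1.16, adjusted p = 5.73e-06, limma) rose, and the cytosolic folate enzyme MTHFD1 (−1.19, adjusted p = 3.00e-06) and the mitochondrial transhydrogenase NNT (−1.02, adjusted p = 9.75e-06) fell. Of 24 glutathione genes 7 rose and 8 fell (median 0.00479). SLC3A2, the partner chain of SLC7A11, rose by 1.35 (adjusted p = 9.03e-06), while CHAC2, which degrades glutathione, fell by 1.44 (adjusted p = 4.37e-08) and GSS, the enzyme after glutamate-cysteine ligase, fell by 1.08 (adjusted p = 7.69e-05). Of 18 thioredoxin and peroxiredoxin genes 5 rose and 4 fell (median −0.08). TXNIP, the thioredoxin inhibitor, rose from 4.08 ± 1.83 to 200 ± 73.6 FPKM (5.21, adjusted p = 9.01e-11) and SESN2 by 1.04 (adjusted p = 8.96e-05), while TXNDC17 (−0.66, adjusted p = 1.30e-04) and SESN3 (−0.37, adjusted p = 0.0115) fell. TXN, the substrate of TXNRD1, did not pass (−0.13, adjusted p = 0.143), at 144 ± 10.2 and 134 ± 25.1 FPKM. Under quantile normalization TXN passed as lower (−0.20, adjusted p = 0.0260) and SESN3 did not pass (−0.24, adjusted p = 0.114). Of 4 enzymes of superoxide and hydrogen peroxide SOD2 rose (1.32, adjusted p = 1.97e-04), and CAT (−0.80, adjusted p = 3.82e-04) and SOD1 (−0.54, adjusted p = 8.78e-05) fell.

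For each member the most similar course of acid differences was sought among 8883 tested genes that averaged 5 FPKM or more, by the root mean square distance between the 13 log2 differences. MPHOSPH6 lay nearest to NQO1 at 0.11, followed by RFC5 and MLLT11 at 0.21 each. The nearest gene to PGD was SLC39A1 (0.13), to SRXN1 VAPB (0.15), to TKT ISOC2 (0.18), to GCLM DIEXF (0.20) and to GCLC DKC1 (0.20). TXNRD1 (UBASH3B, 0.27), HMOX1 (FHL3, 0.32) and OSGIN1 (HIP1R, 0.38) had no gene as close. None of these 11 genes was on the lists of NRF2 targets or pentose phosphate genes.

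Positions in GENCODE 29 (GRCh38) were chr22:35380361-35394214 for HMOX1, chr16:69706996-69726951 for NQO1, chr1:93885205-93909456 for GCLM, chr6:53497341-53616970 for GCLC, chr12:104215779-104350305 for TXNRD1, chr20:646615-653370 for SRXN1, chr16:83948282-83966332 for OSGIN1, chr1:10398592-10420144 for PGD and chr3:53224707-53256052 for TKT. Annotated genes overlap 5 of them. AC092115.2 lies antisense to NQO1, AL033397.2 to GCLC and AC089983.1 to TXNRD1. AL033397.1 lies on the strand of GCLC, EID3 and the pseudogene RPL18AP3 on that of TXNRD1, AL121758.1 on that of SRXN1 and AC009119.2 on that of OSGIN1. The strand setting of the authors' counting is not given in the sources used here, so a share of these genes' fragments may belong to their neighbours.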

How the data were processed

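RNA was extracted with TRIzol and sequenced from stranded libraries of polyadenylated RNA, per the labels' protocols. The authors deposited 1 table of FPKM for 26 libraries. The submitters' processing notes name STAR, Cufflinks and hg38, without versions or an annotation. Of 19806 rows, 1448 were at 0 throughout and 101 symbols were on several rows, of which the highest mean was used.

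FPKM are not counts, so log2(FPKM + 1) was tested with limma 3.58.1 (R 4.3.3; empirical Bayes moderation following a trend in the mean) for genes that averaged 1 FPKM or more, with Benjamini-Hochberg adjustment at 0.05. The acid effect had the time point as a block, since both media of a time were harvested together. Depth was estimated from the spacing of values up to 3.5 fragments in 1808 genes. Of their values between 0.5 and 3.5 fragments, 87.7% to 94.4% per library lay within 0.1 of a whole number. The depth was chosen to bring such values near whole numbers, so this share is no check of it. The limma tests were tried on simulated data with independent noise. The depth estimate and the permutation tests were not.

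The members, lists and tests were chosen with earlier results of these data known. Each list contributed the genes with its 2 largest increases and its 2 largest decreases that reached 5 FPKM in either group, beside fixed genes of the NRF2 and thioredoxin systems, of which 1 is not reported here. Alternatives were another pseudocount (0.1), filters (none, 5 FPKM), quantile and upper-quartile scaling, a moderation without trend, no block, each plate set alone, the plate set as a covariate, and leaving out each time or the 6 libraries of low depth or skewed GC content. For the ratios the whole times of these 6 libraries were left out. A correction for GC content, the late minus early comparison of the ratios and its checks were chosen after seeing the data.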

Additional observations from a re-analysis of the deposited data

Results flagged for a closer look

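The acid effect differed between 4 to 24 h and 28 to 52 h by the test of that difference itself (limma, pH by plate set, adjusted over all genes) in 21 of the 112 tested genes of the related lists (18.8%, against 17.1% of all genes), 8 of which are among the genes named here. On the log2(FPKM + 1) scale, late minus early, it was larger late by 2.84 for AKR1C1, 1.63 for ALDH1L2, 1.57 for SOD2, 1.53 for SLC7A11 and 1.00 for SLC3A2. It was more negative late for CAT (−0.95), GSTM4 (−0.81) and MTHFD1 (−0.70). The GCLM to GCLC ratio also differed, by 0.79, in an exact permutation test of late against early times that was chosen after the data were seen. Over the 7 times without a library of low depth or skewed GC content, 2 genes in all passed the limma test of this difference.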

How the results depend on the processing

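Each time had 1 library per pH and depth was only estimated, so no counting error is given. NQO1, HMOX1, SRXN1 and TKT passed the acid test in 1 direction with every single time left out. Leaving out single times, members higher in acid were 1 to 2. The acid effect then differed late from early in 791 to 1626 genes upward and 500 to 1025 downward, and in 0 to 1 members in each direction. Genes that fell at pH 7.4 numbered 599 to 1321, and members 2 to 4. The late minus early effect of HMOX1 (−0.0446 to 0.44) and TKT (−0.24 to 0.27) and the neutral trend of HMOX1 (−0.17 to 0.10) took either sign. Without the replicate block, pairing being by shared harvest, 1 member was higher instead of 2, and TXNRD1 (adjusted p = 0.0761) and PGD (0.0663) were lost; 1 was also higher without a filter.

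Without the 6 libraries of low depth or skewed GC content, 1 member was higher and the acid effect of GCLM was −0.0457. In the same setting 2 genes differed late from early upward and 0 downward. These fits paired the media, so their effects rested on the 7 times with both libraries. The trend fits did not pair the media and kept the other library of each time. In them 481 genes fell at pH 7.4, and the neutral trends of HMOX1 and OSGIN1 were 0.23 and 0.00503. Over the 7 times with both libraries the TKT to PGD ratio differed late from early (0.41, exact permutation p = 0.0286, the smallest these times allow). Over all 13 times this difference, compared after the data were seen, was 0.34 and did not pass (exact permutation p = 0.395). The 4 to 24 h times gave 1015 higher and 2141 lower genes and 1 higher member, and the effects were −0.21 for GCLM, −0.0550 for AKR1C1 and −0.57 for the GCLM to GCLC ratio. Named genes that passed over all times but not over 4 to 24 h were TXNRD1, PGD, NFE2L2, DPP3, GSTM4, SLC7A11, AKR1C1 and PGM2. The same held for PRPS1, ALDH1L2, GSS, TXNDC17, SESN3, SOD2, CAT and SOD1. KEAP1 passed as lower over 4 to 24 h alone. From 28 to 52 h alone 1 member was higher, and the effects were −0.0359 for OSGIN1, 0.0310 for SQSTM1 and 0.22 for that ratio. With the plate set as a covariate 33 genes rose and 16 fell at pH 7.4, with 0 members, and 818 rose and 896 fell at pH 6.3, with 1 member, where OSGIN1 (1.14) and TKT (0.43) turned upward.

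Scaling moved the median acid effect of all genes by 0.106 (quantile), raising the higher share of calls from 37.5% to 48.1% with the same counts of members. It gave TKT a late minus early effect of −0.0205 (quantile) and −0.0758 (upper quartile). With correction for GC content HMOX1 trended upward at pH 7.4 (0.11) and passed as rising at pH 6.3, the 1 member to do so, and SRXN1 passed as the 1 member higher late, as it did with a filter of 5 FPKM. GCLM then also passed as falling at pH 6.3 with that correction (−0.29, adjusted p = 0.0205, limma). The causes were not tested.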
